A study of Mus musculus with 9 samples.

Results

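The genes described here encode 9 components and regulators of complement, a system of plasma and membrane proteins that tags microbes, debris and injured cells. They were chosen by name: C1qa, C1qb, C1qc, C2, C3, C4b, C7, Cfb and Cd55. All 9 were found among the 24537 gene names of the table that compares sham quadriceps with sham heart, where they hold 10 of 35745 transcripts because Cfb has 2. Of the 9, 7 were found among the 587 genes with an extracellular Gene Ontology annotation in the table that compares TAC with sham quadriceps, and C7 and Cd55 were not analysed after TAC.

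RNA sequencing was performed on the quadriceps, a thigh muscle, and the heart of C57Bl6 mice (male C57Bl/6JCrl by the study's methods) to look for secreted factors that skeletal muscle makes differently in heart failure. Transverse aortic constriction (TAC), a narrowing of the aorta around a 27 gauge needle that overloads the left ventricle, or sham surgery was carried out at 8 weeks of age, and tissue was taken 12 weeks later. There were 3 libraries each of sham heart, sham quadriceps and TAC quadriceps, 9 in all, and TAC hearts were not analysed here. The sample titles call the TAC muscle TACKachexie, and the study describes this stage as advanced heart failure with cachexia, so the TAC quadriceps is wasting muscle by its account. The labels name no transgene or drug in any group. The study calls the replicates biological, but the labels do not tie a library to an animal. The p-values therefore measure only the spread between these libraries.

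Complement is started by 3 routes. C1q, assembled from the products of C1qa, C1qb and C1qc, recognises bound antibody, apoptotic cells and debris, and its proteases then split C4 and C2 to form the classical C3 convertase. Factor B, the product of Cfb, forms the corresponding convertase of the alternative pathway, and both convertases split C3, the component on which all routes converge. C7 is part of the membrane attack complex at the end of the cascade, and CD55, also called decay accelerating factor, takes the convertases apart on the surface of host cells. Liver makes most plasma complement, whereas in tissues macrophages are the best known source of C1q and fibroblasts and other stromal cells also make C3, C4 and C7.

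The 3 C1q genes lie side by side on the minus strand of mouse chromosome 4, within 18675 bases and with no other annotated gene overlapping them (GRCm38, GENCODE). C1qb is at chr4:136880129-136886187, C1qc at chr4:136889804-136893065 and C1qa at chr4:136895917-136898803. Promoters, taken as the 250 bases before and 50 after the annotated start, were matched in a RefSeq table of GRCm38.p6 for 5 members, C1qb, C1qc, C3, C7 and Cd55. Those of C1qb (chr4:136886151-136886450, minus strand) and C1qc (chr4:136892865-136893164, minus strand) are shown because C1qc had the lowest fold change after TAC and C1qb is the other C1q chain with a matched promoter, and that of Cd55 (chr1:130462695-130462994, minus strand) because it differed most between muscle and heart. They are written from 5′ to 3′, and capitals mark every match, on either strand, to 4 motifs, the PU box (GAGGAA) of the myeloid factor PU.1, an E-box (CAGCTG) of the kind that myogenic factors bind, the TATA box (TATAAA) and the GC box (GGGCGG).
C1qb: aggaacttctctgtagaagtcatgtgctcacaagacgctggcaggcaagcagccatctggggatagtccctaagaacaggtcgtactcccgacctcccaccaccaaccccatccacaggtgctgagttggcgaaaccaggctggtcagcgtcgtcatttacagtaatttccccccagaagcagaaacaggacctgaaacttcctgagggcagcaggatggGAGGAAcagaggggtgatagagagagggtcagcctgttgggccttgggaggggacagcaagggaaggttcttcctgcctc
C1qc: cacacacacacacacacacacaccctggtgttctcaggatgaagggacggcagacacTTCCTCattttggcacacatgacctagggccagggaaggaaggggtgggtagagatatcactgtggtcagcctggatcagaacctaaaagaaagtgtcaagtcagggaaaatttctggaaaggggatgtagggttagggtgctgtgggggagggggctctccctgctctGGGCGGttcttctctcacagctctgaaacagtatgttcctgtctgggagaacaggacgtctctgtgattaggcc
Cd55: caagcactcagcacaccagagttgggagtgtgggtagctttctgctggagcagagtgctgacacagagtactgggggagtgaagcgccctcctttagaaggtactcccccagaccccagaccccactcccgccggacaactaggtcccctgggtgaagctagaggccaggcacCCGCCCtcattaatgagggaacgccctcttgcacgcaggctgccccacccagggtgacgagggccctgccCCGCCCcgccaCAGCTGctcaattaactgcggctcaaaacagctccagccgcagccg
With the annotated start counted as 0, the PU box began at -30 in C1qb and, read on the opposite strand as TTCCTC, at -193 in C1qc, which also held a GC box at -24. In Cd55 the E-box began at 4 and GC boxes, read on the opposite strand as CCGCCC, at -77 and -7. No base belonged to more than 1 match. Of 32851 promoters of this length, 28.3% held GAGGAA, 16.3% CAGCTG, 13.6% TATAAA and 35.7% GGGCGG, so none of these letters was rare. C3 held 1 TATAAA match, beginning at 14, and C7 held CAGCTG at -129 and -14 and TATAAA on the opposite strand at -6.

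Sham libraries held 23383452 to 38382751 counts in all and TAC libraries 1 and 2 held 48614494 and 48999600, while the total of TAC library 4, which carries this number although the labels run to 3, was not used. The table of TAC against sham quadriceps held 689630 to 1326011 of these counts per library. The tissue labels held, with 768767 to 933029 counts of Myh6, the heart myosin, in sham hearts against 59 to 82 in sham quadriceps, and 559634 to 726121 counts of Myh4, a fast skeletal myosin, in quadriceps against 32 to 50 in hearts. Counts were compared after TMM normalization, which sets the bulk of the tested genes level. Dividing by library totals instead shifted the median log2 fold change of all genes from 0.029 to -0.63 after TAC, without TAC library 4. For quadriceps against heart it went from -0.056 to -0.80. Directions are therefore given relative to the tested genes. Values with library totals are added where a member's call or sign changed, and for some of the other genes named. The remaining values of other genes may also depend on the scaling. TAC library 4 stood apart in Alb, the liver's albumin, with 1261 normalized counts against 0.979 to 43.5 in the other quadriceps libraries of that table, and in Hba-a1, a haemoglobin chain of red blood cells, with 191 against 767 to 1248. In bulk tissue, fewer cells of a type and less RNA per cell cannot be told apart.

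The comparison of TAC with sham quadriceps asked which complement genes muscle expressed differently after long pressure overload. C1qc and C1qa fell, by 2.65-fold and 1.85-fold, and C1qb was 1.49-fold lower without passing the test. No member rose, and C2, Cfb, C3 and C4b did not pass. Of the 7 members, 2 were thus called lower at an adjusted p under 0.05 and 0 higher by the quasi-likelihood test of edgeR after Benjamini-Hochberg adjustment, against 11.9% of 586 tested genes lower and 17.7% higher. The members' median was -0.48 on the log2 scale, and that of all genes tested 0.029. DESeq2 called 1 member lower and 0 higher, against 13.7% and 18.6% of genes, and scaling by library totals called 4 lower and 0 higher, against 30.7% and 3.41%. At an unadjusted p under 0.05 with a change of 1 or more on the log2 scale, the criterion of the study, C1qc was lower and 0 members higher, against 12.6% and 11.4% of genes.

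C1qc encodes the C chain of C1q. In sham quadriceps 117, 101 and 71 raw counts were found, and after TAC 39, 43 and 31, although the TAC libraries held more counts in the table. Normalized counts, which are raw counts brought to the mean effective size of the 6 libraries with TMM, were 95.1, 102 and 97.6 in sham and 37.8, 42.1 and 31.0 in TAC quadriceps. All TAC libraries lay below all sham libraries, and the spread within each group was small (98.3 ± 3.53 against 37.0 ± 5.56, SD, n = 3). The log2 fold change was -1.41 (SE 0.24, 95% interval -1.94 to -0.87, adjusted p = 0.00664 by edgeR). The call was kept without any single library, with adjusted p from 0.00757 to 0.0345, and with DESeq2.

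C1qa encodes the A chain. Its normalized counts were 53.6, 62.7 and 74.2 in sham and 31.0, 42.1 and 29.0 in TAC quadriceps. The groups did not overlap, and the highest TAC library reached 42.1 against 53.6 for the lowest sham library. Its log2 fold change was -0.89 (SE 0.28, adjusted p = 0.0451 by edgeR), close to the threshold. It was lost without sham library 1, 2 or 3 or TAC library 1 or 4, with adjusted p from 0.0627 to 0.176, and with DESeq2, where the adjusted p was 0.0599.

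C1qb encodes the B chain, and its normalized counts were 90.2, 76.8 and 100.4 in sham and 46.5, 68.5 and 64.1 in TAC quadriceps. Here too every TAC library lay below every sham library, but by a narrower margin. The log2 fold change was -0.58 (SE 0.25, 95% interval -1.15 to 0.0038, adjusted p = 0.120 by edgeR). With library totals it was -1.28 (adjusted p = 0.0259). Groups that did not overlap, with TAC lower, were thus found for 3 of the 7 members, all of them C1q chains, against 21.2% of all genes tested.

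C2 supplies the protease of the classical convertase. It had 52.8, 47.5 and 50.9 normalized counts in sham and 52.3, 16.6 and 39.1 in TAC quadriceps. The sham libraries were close together, whereas TAC library 2 stood well below the other two. This gave a log2 fold change of -0.48 (SE 0.40, adjusted p = 0.399), -0.14 without TAC library 2, -0.91 without TAC library 1 (adjusted p = 0.149) and -1.19 with library totals (adjusted p = 0.1001), all by edgeR.

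C4b encodes C4, the other part of that convertase, and its normalized counts were 50.4, 69.7 and 44.0 in sham and 103.6, 32.3 and 83.1 in TAC quadriceps. TAC libraries 1 and 4 lay above and TAC library 2 below all sham libraries. The log2 fold change of 0.41 (SE 0.42, adjusted p = 0.495) became 0.77 without TAC library 2 (adjusted p = 0.0803), 0.015 without TAC library 1 (adjusted p = 0.983) and -0.32 with library totals (adjusted p = 0.630), in edgeR throughout. C4b has a near-identical copy, C4a, so its counts are uncertain where reads could come from either.

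Cfb had 76.4, 57.6 and 64.6 normalized counts in sham and 48.4, 42.1 and 74.1 in TAC quadriceps. TAC libraries 1 and 2 lay below all sham libraries and TAC library 4 near the highest of them. Its log2 fold change was -0.27 (SE 0.29, adjusted p = 0.510 by edgeR), and with library totals, which leave out TAC library 4, it was -1.21 (adjusted p = 0.0353).

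C3, the most abundant of the 7 per length, had 992, 874 and 797 normalized counts in sham and 1070, 889 and 1166 in TAC quadriceps. The groups overlapped at TAC library 2. The log2 fold change was 0.23 (SE 0.20, 95% interval -0.24 to 0.70, adjusted p = 0.433 by edgeR), and -0.51 with library totals (adjusted p = 0.150). The intervals of C3 and of C1qc did not overlap.

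**Figure D1:**
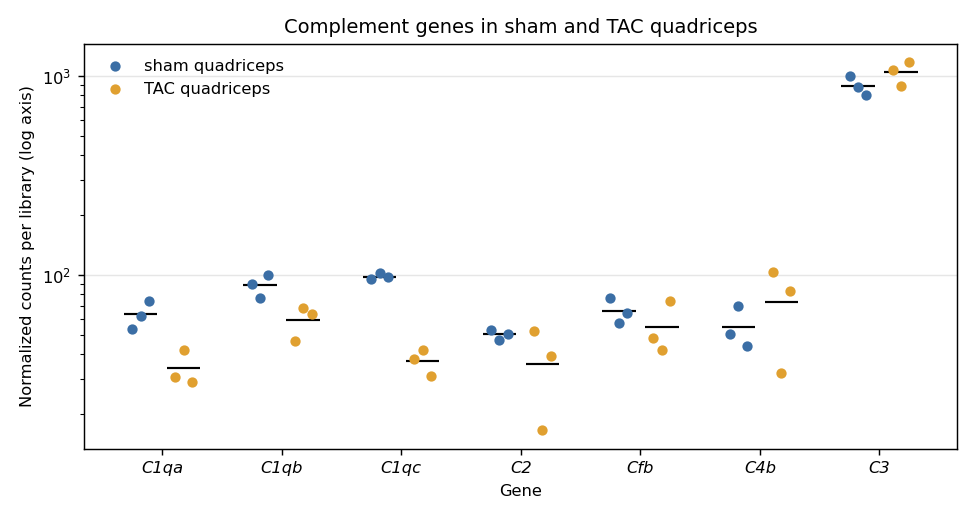
Normalized counts per library (TMM, log axis) of 7 complement genes in sham (blue) and TAC (orange) quadriceps, with 1 point per library and a line at the mean of 3 libraries. The TAC points of C1qa, C1qb and C1qc lie below all of their sham points, whereas those of C2, Cfb, C4b and C3 overlap with sham.

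TAC library 2 was the lowest TAC library in C2, Cfb, C3 and C4b but the highest in C1qa, C1qb and C1qc. Adipoq, the adipocyte marker that could be measured after TAC, stood at 962, 429 and 129 normalized counts in sham and 523, 114 and 708 in TAC quadriceps, so TAC library 2 was also the lowest there. Its part in the values of C2, Cfb, C3 and C4b was not tested. Leaving out TAC library 2 kept both calls, C1qc and C1qa. TAC library 4, which stood apart in Alb and Hba-a1, was the highest TAC library in C3 and Cfb and the lowest in C1qa and C1qc. Without it the log2 fold changes were 0.059 for C3, -0.64 for Cfb, -0.88 for C1qa and 0.25 for C4b, none of them called by edgeR, and C1qc was still called. The part of liver or blood transcripts in these values was not tested.

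Since the direction of C3 depended on the scaling, the members were also set against C3 within each library, after the values had been seen, as counts per kilobase, a ratio that no scaling touches. The C1q chains summed to 138% ± 24.4 of C3 (SD, n = 3) in sham quadriceps, from 116 to 164%, and to 61.9% ± 17.9 in TAC quadriceps, from 51.2 to 82.6%. C1qc alone went from 54.3% of C3 to 17.7%, a ratio 3.07 times lower, C1qa from 34.5% to 16.0% and C1qb from 49.0% to 28.2%. None of the groups overlapped for these ratios, nor for C2 (11.1% against 6.54%) and Cfb (14.0% against 9.73%), while those of C4b did (5.90% against 6.49%). All of these ratios are divided by C3, whose mean with TMM was 888 normalized counts in sham and 1042 in TAC quadriceps. In their own normalized counts the groups of C2 and Cfb overlapped. The part of C3 in their separation was not tested. How often all genes separate when set against C3 was not computed, so no share stands beside these ratios. By the exact two-sided permutation test each of the ratios without overlap had p = 0.1, the smallest that 3 against 3 libraries allow, and 0.157 after adjustment over the 22 ratio comparisons made.

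The make-up of the C1q transcripts was compared in the same way, and no share could pass the test with 3 against 3 libraries. In sham quadriceps C1qa, C1qb and C1qc made up 24.8%, 35.5% and 39.7% of the C1q counts per kilobase, and in TAC quadriceps 25.5%, 45.7% and 28.7%. The share of C1qc ranged from 36.2 to 42.6% in sham and from 25.3 to 33.1% after TAC, without overlap (exact permutation p = 0.1, the smallest possible, and 0.157 adjusted). That of C1qb ranged from 31.8 to 37.8% and from 40.4 to 51.7%, also without overlap and with the same p-values, and that of C1qa overlapped (exact permutation p = 0.6). In sham heart the order of the means was the reverse of that in sham quadriceps, with C1qa at 38.8%, C1qb at 34.0% and C1qc at 27.3%. Single libraries did not all keep these orders apart. In sham quadriceps library 3 C1qb was at 37.0% and C1qc at 36.2%. In heart library 2 C1qa was at 37.3% and C1qb at 37.1%.

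**Figure D2:**
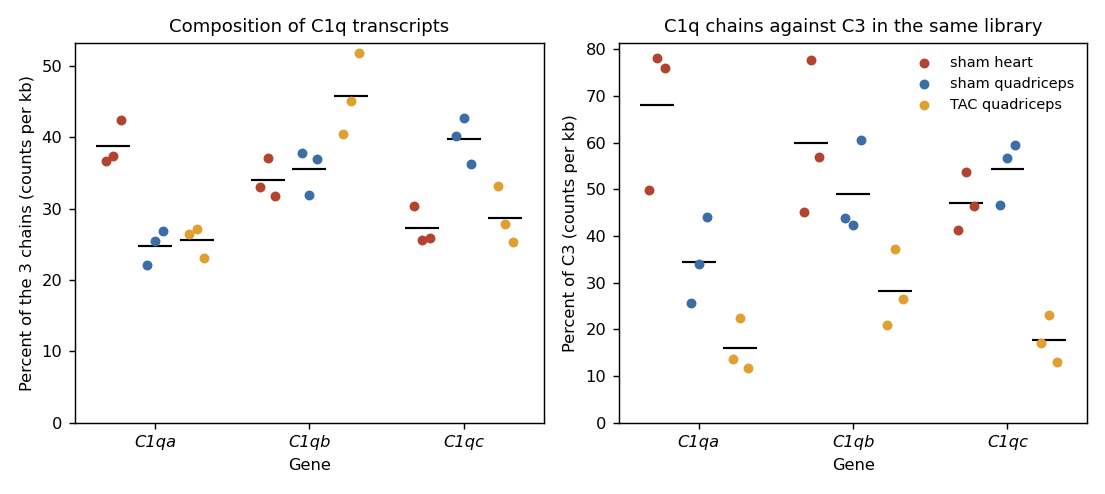
Left, percent of the C1q counts per kilobase held by each chain; right, each chain as percent of C3 counts per kilobase in the same library, for sham heart (red), sham quadriceps (blue) and TAC quadriceps (orange), with 1 point per library and a line at the mean of 3. C1qa has its largest share in the hearts, C1qc in sham quadriceps and C1qb in TAC quadriceps, and against C3 all 3 chains are lower in TAC than in sham quadriceps.

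Macrophage markers could be followed after TAC for 2 of 9 listed genes. Lyz2, lysozyme of macrophages and neutrophils, fell (586, 485 and 705 normalized counts in sham against 252, 195 and 301 in TAC, log2 fold change -1.25, edgeR adjusted p = 0.0120), and Mertk, a receptor for apoptotic cells, was at 0.66 (adjusted p = 0.0967). Their summed level ranged from 533 to 748 in sham and from 274 to 363 in TAC quadriceps, and neither was at 0 in a library. Of the 8 fibroblast markers measured, 7 were called lower, and the median log2 fold change of the 8 was -2.07. The other, Dcn, was at 0.17 (edgeR adjusted p = 0.601). The sum of the 8 ranged from 11156 to 14574 in sham and from 6662 to 9851 in TAC quadriceps. Dcn was the most abundant of them, with a mean of 6474 normalized counts in sham and 7301 in TAC quadriceps. Pecam1, the endothelial marker measured, was called higher at 0.63 (edgeR adjusted p = 0.0341), and was at -0.021 with library totals. The part of these cells in the lower C1q counts was not tested.

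The rest of the pathway was followed with a list of 48 other complement genes. After TAC 11 of them were tested, 2 were called higher and 3 lower, beside the 17.7% and 11.9% of all genes given above, with a median of -0.19 on the log2 scale beside 0.029 over all genes. Itgam, a chain of complement receptor 3 on myeloid cells, had 57.7, 69.7 and 81.1 normalized counts in sham and 29.1, 16.6 and 16.0 in TAC quadriceps (-1.74, edgeR adjusted p = 0.00887). Clu, clusterin, which blocks assembly of the membrane attack complex, had 1242, 1957 and 2069 in sham against 554, 819 and 1013 (-1.14, adjusted p = 0.0217). C1s1, one of the proteases of C1q, had 606, 520 and 484 against 322, 361 and 308 (-0.70, adjusted p = 0.0385). For each of these 3 genes all TAC libraries lay below all sham libraries. Itgam is overlapped by Gm49368 on its own strand and C1s1 by the antisense gene Gm16567, so their reads cannot be told apart.

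The genes called higher were Masp2, the protease of the lectin route (250, 157 and 181 in sham against 558, 439 and 400, log2 fold change 1.24, edgeR adjusted p = 0.0136), and C1qbp, a mainly mitochondrial protein that binds C1q (0.66, adjusted p = 0.0475). With library totals they were at 0.67 (adjusted p = 0.155) and -0.050. Masp2 overlaps Tardbp on the opposite strand, and the counting is not stated to use strand, so reads of these genes cannot be told apart. C1ra, the partner protease of C1s1, was at -0.42 (adjusted p = 0.255), Serping1, the inhibitor of both, at -0.19 (0.468), and Cfd, factor D, an adipocyte product, at 0.73 (0.510), with 1021, 516 and 129 normalized counts in sham and 1125, 225 and 1425 in TAC quadriceps. None of these 3 passed the edgeR test. With library totals, Serping1 was called lower at -0.82 (edgeR adjusted p = 0.0264) and Cfd was at -0.44 (0.720).

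The comparison of sham quadriceps with sham heart, made by the study to find genes that muscle expresses above heart, uses the same sham quadriceps libraries. Cd55 and C2 were far higher in quadriceps, by 9.74-fold and 4.32-fold, and Cfb was 1.60-fold higher, whereas C1qa, C7, C4b, C1qb, C3 and C1qc were lower, by 2.87-fold to 1.25-fold for the C1q chains and 3.28-fold for C7. Of the 10 member transcripts, 4 (3 genes) were called higher and 6 lower by the same edgeR test and adjustment, against 32.2% of 24280 transcripts higher and 34.4% lower. Groups did not overlap for 4 transcripts with quadriceps higher, against 34.2% of all, and for 5 with quadriceps lower, against 38.3%. On the log2 scale the member transcripts had a median of -0.42 and all transcripts -0.056. DESeq2 called 4 higher and 5 lower, against 31.7% and 31.8% of transcripts, and library totals 2 higher and 6 lower, against 13.3% and 62.6%. The study asked for higher expression in quadriceps with a log2 fold change above 2 and p under 0.05. By this criterion, with unadjusted edgeR p-values, Cd55 and C2 were higher, against 7% of all transcripts. With the same cut in the other direction, which the study did not use, 0 members were lower, against 8.64%.

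Cd55 encodes the membrane-bound inhibitor of the C3 convertases and lies at chr1:130439027-130462744 on the minus strand, with an antisense gene, Gm16083, on the other strand. It had 318, 277 and 265 raw counts in hearts and 1809, 1181 and 1115 in quadriceps. Normalized counts were 233, 192 and 216 in heart and 2325, 1725 and 2202 in quadriceps. Every quadriceps library exceeded every heart library many times over, with a log2 fold change of 3.28 (SE 0.15, 95% interval 2.96 to 3.61, edgeR adjusted p = 9.45e-08), and 2.54 with library totals. Whether reads of Gm16083 entered these counts was not tested. Cd55b, the neighbouring paralog, had at most 3.47 normalized counts in a heart library and none in quadriceps.

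C2 and Cfb are neighbours on the minus strand of chromosome 17, C2 at chr17:34862604-34898265 and Cfb at chr17:34856374-34862518. An annotated gene, Gm20547, runs across both on the same strand, so a read from it cannot be told apart from theirs. Zbtb12, a protein-coding gene on the plus strand, also overlaps C2, and the counting is not stated to use strand. Whether its reads entered the counts of C2 was not tested. C2 had 17.6, 18.1 and 16.3 normalized counts in heart and 83.5, 68.7 and 73.1 in quadriceps, with narrow spread in both (log2 fold change 2.11, SE 0.21, edgeR adjusted p = 1.62e-05), and 1.37 with library totals. Cfb, by its transcript NM_008198, had 71.2, 69.5 and 45.6 in heart and 120.8, 83.3 and 92.8 in quadriceps. Its groups did not overlap, but its log2 fold change of 0.67 (SE 0.23, edgeR adjusted p = 0.0245) was lost without heart library 3 (0.50, adjusted p = 0.0798) or quadriceps library 1 (0.52, adjusted p = 0.0786) and became -0.064 with library totals. The ratio of C2 to Cfb counts per kilobase, which needs no scaling, was 0.300 ± 0.0624 in heart, 0.798 ± 0.0713 in sham quadriceps and 0.694 ± 0.378 in TAC quadriceps (SD, n = 3). It did not overlap between heart and sham quadriceps (exact permutation p = 0.1, the smallest possible) and overlapped between sham and TAC (p = 0.6).

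Among the members lower in quadriceps, the C1q chains were graded. C1qa had 239, 263 and 303 normalized counts in heart and 84.8, 90.6 and 106.7 in quadriceps (log2 fold change -1.52, SE 0.15, edgeR adjusted p = 1.74e-05). C1qb had 212, 256 and 222 against 142.6, 111 and 144 (-0.80, SE 0.15, adjusted p = 0.00104). C1qc had 193, 176 and 180 against 150, 148 and 140 (-0.32, SE 0.12, adjusted p = 0.0383). Heart libraries exceeded quadriceps libraries for all 3 chains, but the 95% interval of C1qa, -1.86 to -1.18, lay below those of C1qb, -1.13 to -0.47, and of C1qc, -0.59 to -0.051. The call on C1qc was lost whichever library was left out (edgeR adjusted p from 0.0539 to 0.136) and with DESeq2 (0.139). That on C1qa was kept in every alternative run at an adjusted p under 0.05. The size of the C1qa change lay under the cut of 2 with TMM, while with library totals it was at -2.27.

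Of the 9 macrophage markers 7 were also called lower in quadriceps and 0 higher, with a median log2 fold change of -0.79, and their summed normalized counts ranged from 3627 to 3661 in heart and from 1648 to 2392 in quadriceps. Csf1r, the receptor for the macrophage growth factor, was at -1.38 and Cx3cr1, a chemokine receptor, at -3.67, whereas Cd68 (-0.43) and Cd163 (0.19) did not pass. With library totals, Cd68 (-1.19, edgeR adjusted p = 0.0389) and Cd163 (-0.55, 0.0416) were called lower. None of the 9 markers was at 0 in a library. All 5 endothelial markers were called lower too, with a median of -1.49 and sums of 16379 to 17733 normalized counts in heart against 4997 to 5815 in quadriceps, as were the haemoglobin genes Hba-a1 (-1.72) and Hbb-b1 (-1.51). The part of these cells in the members' values was not tested.

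C3 is at chr17:57203970-57228136. It had 2266, 1591 and 1885 normalized counts in heart and 1568, 1264 and 1146 in quadriceps, with the highest quadriceps library just below the lowest heart library. Its log2 fold change of -0.53 (SE 0.16, edgeR adjusted p = 0.0147) was lost without heart library 1 (-0.39, adjusted p = 0.0651) or quadriceps library 3 (-0.41, adjusted p = 0.0668). C4b, at chr17:34728380-34743882, had 214, 150 and 100.1 in heart and 79.7, 100.8 and 63.2 in quadriceps, the only member whose groups overlapped, and its log2 fold change of -0.92 (SE 0.29, edgeR adjusted p = 0.0179) was lost without heart library 1 (-0.62) or quadriceps library 1 (-0.86) or 3 (-0.76). C4a, its copy, had 18, 18 and 5 raw counts in heart and 1, 0 and 0 in quadriceps.

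C7, at chr15:4988762-5063740, had 522, 449 and 261 normalized counts in heart and 135, 81.8 and 164 in quadriceps. The groups stood well apart although heart library 3 was low, with a log2 fold change of -1.71 (SE 0.30, edgeR adjusted p = 0.000684) that was called without any single library (-1.95 to -1.47). Among other terminal components, C6 was near the floor, with 9, 6 and 3 raw counts in heart and 2, 0 and 0 in quadriceps, and Hc (complement C5) and C9 had at most 2 counts in a library. C8g, a chain of C8, had 24, 33 and 17 raw counts in heart and 15, 13 and 7 in quadriceps. It is overlapped by the protein-coding gene Fbxw5 on the opposite strand, so their reads cannot be told apart. C8a and C8b, the other chains of C8, had at most 3 counts in a library. The log2 fold change of C8g was -0.047 (edgeR adjusted p = 0.904), and -0.79 with library totals (0.0499). Of the 9 fibroblast markers 5 were called lower in quadriceps and 0 higher, with a median log2 fold change of -0.50 and sums from 24145 to 27615 in heart and from 16714 to 23800 normalized counts in quadriceps, and their part in the values of C3, C4b and C7 was not tested.

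**Figure D3:**
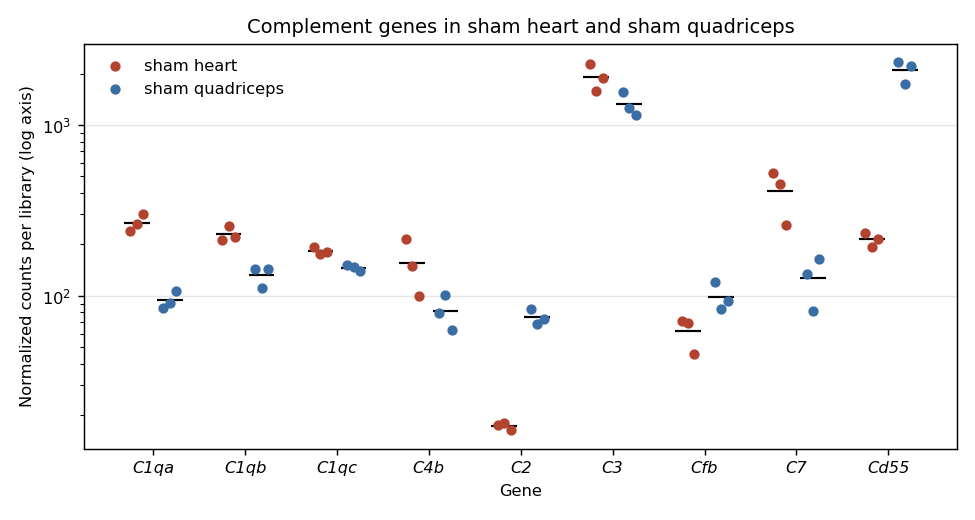
Normalized counts per library (TMM, log axis) of the 9 complement genes in sham heart (red) and sham quadriceps (blue), with 1 point per library and a line at the mean of 3; Cfb is shown by 1 transcript. The quadriceps points of Cd55 and C2 lie far above their heart points, those of C1qa and C7 well below, and C4b is the gene whose groups overlap.

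Levels of different genes can be compared per length, as RPKM. In sham quadriceps Cd55 led with 18.4 ± 3.92 RPKM (SD, n = 3), followed by C3 (5.78 ± 1.35), C1qc (3.08 ± 0.294), C1qb (2.78 ± 0.539), C1qa (1.92 ± 0.203), C7 (1.05 ± 0.367), Cfb (0.809 ± 0.220), C2 (0.635 ± 0.111) and C4b (0.334 ± 0.070). The neighbours C1qc and C1qb, C7 and Cfb, and Cfb and C2 overlapped in their libraries and did not differ beyond their spread. In sham heart C3 led with 13.9 ± 2.33, ahead of C1qa (9.25 ± 1.14), C1qb (8.09 ± 0.894), C1qc (6.47 ± 0.258), C7 (5.67 ± 1.84), Cd55 (3.15 ± 0.272), C4b (1.07 ± 0.390), Cfb (0.845 ± 0.195) and C2 (0.245 ± 0.0140), where C1qa and C1qb, C1qc and C7, and C4b and Cfb overlapped. RPKM divides by library totals, so a level of 1 gene between tissues carries the shift given above. In TAC libraries 1 and 2, the 2 with an RPKM value used here, C3 was at 4.46 and 3.64, C1qb at 0.934 and 1.35, C1qc at 0.765 and 0.837, C1qa at 0.611 and 0.815, Cfb at 0.377 and 0.322, C2 at 0.423 and 0.132, and C4b at 0.411 and 0.126.

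Of the 48 other complement genes, 33 were tested between quadriceps and heart, of which 4 were called higher in quadriceps and 17 lower, beside 32.2% and 34.4% of all transcripts, with a median log2 fold change of -0.59 against -0.056 over all transcripts. With library totals, 2 were higher and 26 lower, beside 13.3% and 62.6%. Several of the largest differences rested on low counts. C1rb had 20, 22 and 28 raw counts in heart and 0 in each quadriceps library, which makes it at least 3.72-fold higher in heart against a floor of 3 counts per library, which covers counting error only, and Colec10, a lectin route collectin, had 21, 10 and 11 against 0, at least 2.21-fold. C1s2 had 46, 41 and 29 raw counts in heart and 3, 0 and 0 in quadriceps. Colec11, a second collectin, was at -4.09 on the log2 scale, and for C4a the raw counts given above stand in place of a fold. C1rb, C1s2 and C4a have near-identical copies and are uncertain.

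Cfd, which cleaves factor B, went the other way, with 28, 11 and 4 raw counts in heart and 1256, 511 and 94 in quadriceps, a log2 fold change of 6.32. Of 5 adipocyte markers 4 were also called higher in quadriceps and 0 lower, with Adipoq at 26, 13 and 7 against 1183, 425 and 94 raw counts. The marker not called was Fabp4 (-0.077, edgeR adjusted p = 0.811). The summed normalized counts of the 5 markers ranged from 8204 to 10651 in heart and from 6654 to 16323 in quadriceps. Most of this sum was Fabp4, with 8158 to 10639 in heart and 6306 to 13848 in quadriceps. The part of adipocytes in the level of Cfd was not tested. C1s1 (1.31), Cd46, a membrane cofactor that inactivates C3b (1.42), and Masp2 (0.64) were also called higher, of which Cd46 (0.68, edgeR adjusted p = 0.0559) and Masp2 (-0.092) were not called with library totals. Cd46 was counted by a RefSeq record of the non-coding class, NR_132621, with 16 to 27 raw counts in a library. It is overlapped by Gm37132 on its own strand and by A330023F24Rik and others on the opposite strand, so their reads cannot be told apart. C1ra was at 0.34 (edgeR adjusted p = 0.0574), and with library totals it was called lower at -0.40 (0.0447). Among inhibitors, Cd59a, which blocks the membrane attack complex, and Cr1l, which acts on the convertases as CD55 does, were both lower (-0.59 each), and Serping1 was at -0.26 (adjusted p = 0.164). The anaphylatoxin receptors C3ar1 (-0.93) and C5ar1 (-1.39) were called lower. Cfp, properdin, was at 0.43 (edgeR adjusted p = 0.0968), and at -0.32 with library totals (0.174). Cfi, factor I, was near the floor with 5, 4 and 6 raw counts in heart and 0, 1 and 0 in quadriceps.

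**Figure D4:**
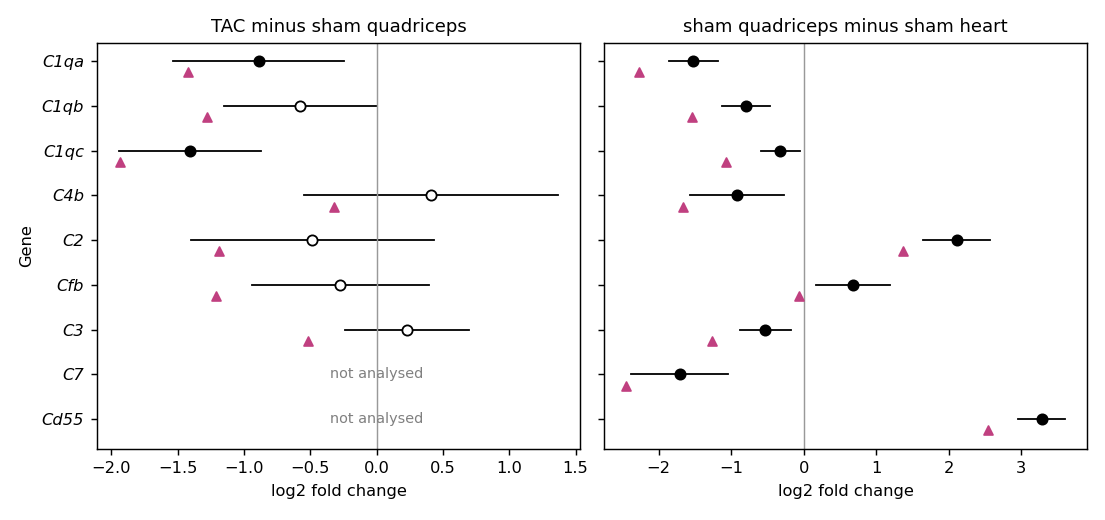
Log2 fold changes of the complement genes for TAC minus sham quadriceps (left) and sham quadriceps minus sham heart (right), with 95% intervals from edgeR as bars; filled points have an adjusted p under 0.05, open points do not, and triangles give the value with library totals. C1qa and C1qc are filled and below 0 in both panels, Cd55 (3.28) and C2 (2.11) lie farthest to the right in the tissue panel, and every triangle lies left of its point.

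The genes that followed C1q most closely over the 9 libraries were sought among 579 other genes in both tables, by Pearson's r of TMM-scaled log2 CPM. These genes carry an extracellular annotation, and only 2 of the 9 macrophage markers, Lyz2 and Mertk, were measured after TAC. The other macrophage markers could therefore not appear among the nearest genes. The mean C1q level was 7.35 ± 0.062 in sham heart, 6.69 ± 0.086 in sham quadriceps and 5.71 ± 0.16 in TAC quadriceps (SD, n = 3). Nearest to it were the matrix genes Fbn1 (r = 0.993), Col6a1 (0.991), Col5a3 (0.985), Mfap4 (0.983) and Col15a1 (0.982). After TAC they were at log2 fold changes of -2.05, -1.45, -0.62, -2.72 and -2.09, with all but Col5a3 (edgeR adjusted p = 0.0699) called. Nearest to C3 were Pdgfc (0.874), Pla2g15 (0.811), Qsox2 (0.783), Apoe (0.773) and Sema3g (0.751), and Qsox2 (1.13, adjusted p = 0.0385) was the only one of these called after TAC. Among the members, r was 0.944 for C1qa with C1qb, 0.836 for C2 with Cfb, 0.758 for C3 with C4b and -0.047 for C1qc with C3. The 9 points fall in 3 groups and share their libraries, so these values describe the pattern and carry no test.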

How the data were processed

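Polyadenylated RNA of 3 sham heart, 3 sham quadriceps and 3 TAC quadriceps samples was sequenced single-ended. The authors trimmed reads with Trim Galore!, aligned them to mm10 with STAR and deposited counts of reads per RefSeq transcript from Rsubread (versions not given in the sources used here). The deposited RPKM values are counts divided by transcript length and library total. The tables also hold the authors' edgeR fold changes and p-values, which were not used. Of the columns of single libraries, 1 was not used, the RPKM of TAC library 4, which could not be tied to a label.

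Counts were tested with edgeR 4.0.16 (limma 3.58.1, R 4.3.3), with TMM and its quasi-likelihood test, and p-values were adjusted by Benjamini-Hochberg over all transcripts of a table that exceeded 5 counts in 2 or more libraries (586 and 24280). All member transcripts passed this filter. The normalized counts of sham quadriceps differ between the comparisons because each was scaled within its own table, while their raw counts were identical. Fits were tested on simulated data. DESeq2 1.42.0, other scalings, filters and samples were alternatives. Tables and figures were made with Python 3.11.15, pandas 2.3.3, numpy 2.4.6 and matplotlib 3.10.9.

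The members and lists were chosen with earlier results of these data known. All members were named, as were the other complement genes with the largest called changes or a role next to a member, and the 5 genes most like C1q and C3. The ratios to C3 and of C2 to Cfb were added after the values had been seen. Replicates differed from each other by more than sampling noise (chi-square per degree of freedom at least 7.1). Replicate numbers were not treated as pairs, since sham and TAC mice are different animals and the labels do not tie heart and quadriceps libraries to an animal. The values of 1 other complement gene are not reported here.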

Additional observations from a re-analysis of the deposited data

How the results depend on the processing

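Of the member log2 fold changes after TAC, 85 of the values under alternatives kept their direction and side of the threshold, 8 lost the call, 3 gained it and 2 changed sign; between tissues 113 kept both, 21 lost the call and 2 changed sign. Dividing by library totals reversed C3 (-0.51) and C4b (-0.32) after TAC and both Cfb transcripts, NM_008198 (-0.064) and NM_001142706 (-0.079), between quadriceps and heart. The 2 members called lower after TAC became 1 with DESeq2, 4 with library totals, 1 by the criterion of the study and 1 to 2 without a single library. All 9 libraries in 1 fit gave 3, with C1qb added (edgeR adjusted p = 0.0379). No member was called higher under any alternative. Between tissues, the 4 transcripts called higher became 2 with library totals, 2 with all 9 libraries in 1 fit, where C7, Cd55 and the other Cfb transcript were not analysed, 2 by the criterion of the study and 2 to 4 without a single library. The 6 called lower became 2 with all 9 libraries, 0 by the cut of the study turned to the lower direction and 3 to 5 without a single library. The cause was not tested.

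A replicate block over the quadriceps libraries numbered 1 and 2 left 1 member called lower after TAC, C1qc, and the same 4 libraries without the block also left 1. Same-numbered libraries correlated at 0.082 and -0.16. A replicate block between tissues gave 4 transcripts higher and 5 lower, C1qc being lost (edgeR adjusted p = 0.0877). Same-numbered heart and quadriceps libraries correlated at 0.055, -0.053 and 0.035 in their deviations from the group means. This cannot decide whether they came from 1 animal, since 2 tissues of an animal need not deviate together. C1q, C2, C4b and Cfb rested on 17 to 378 raw counts a library. The 1.49-fold difference of C1qb after TAC did not pass the test, and the part of depth in this was not tested.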
